A study of Arabidopsis thaliana with 9 samples.

Results

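The 4 Dicer-like genes DCL1 to DCL4 and the RNA-dependent RNA polymerase genes RDR1, RDR2 and RDR6 of Arabidopsis thaliana were followed in stamens, gynoecium and leaf. These 7 genes were chosen by locus, with no rule on their measured levels but with earlier results of these data known. They make up 7 of the 32833 loci of the deposited count table. All 7 passed the filter on low counts that left 20827 loci for testing. RNA sequencing covered 9 libraries of the laboratory accession Col-0: 3 of stamens (the male group), 3 of gynoecium (the female group) and 3 of leaf. No treatment, mutant or age is given, all libraries carry the same stage label of flower bud differentiation, leaf included, and RNA was total RNA of tissue taken with Trizol from immature floral buds and leaves. Nothing in the labels ties the 3 libraries of a tissue to separate plants, so p-values measure only the spread between these libraries.

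Plants make small RNAs from double-stranded RNA. A Dicer-like enzyme (DCL), a ribonuclease III, cuts the duplex, and an RNA-dependent RNA polymerase (RDR) makes a duplex by copying single-stranded RNA, except where the RNA folds back on itself, as microRNA precursors do. DCL1 processes microRNAs, DCL3 works with RDR2 and RNA polymerase IV on the siRNAs that direct DNA methylation to transposons, DCL4 works with RDR6 on trans-acting siRNAs, DCL2 acts beside DCL4 in antiviral defence, and RDR1 is known for its response to viruses and salicylate.

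On the TAIR10.1 assembly as annotated by RefSeq, DCL1 (AT1G01040) lies at chr1:23121-31227 on the plus strand and DCL2 (AT3G03300) at chr3:767880-776214 on the minus strand. DCL3 (AT3G43920) lies at chr3:15753387-15760859 on the plus strand and DCL4 (AT5G20320) at chr5:6859212-6869307 on the minus strand. RDR1 (AT1G14790) lies at chr1:5093961-5098270 on the minus strand, RDR2 (AT4G11130) at chr4:6780449-6784632 on the plus strand and RDR6 (AT3G49500) at chr3:18348974-18353673 on the minus strand. The Dicer-like genes have 20 to 25 exons in their longest coding transcript, and the 3 polymerase genes have 3 or 4. No stretch of 50 exon bases of any of the 7 occurs elsewhere in the genome, so near-identical copies do not share their reads at that length.

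The polymerases carry a catalytic aspartate motif, shown here because it separates RDR1, RDR2 and RDR6 from the 3 other loci annotated as RNA-dependent RNA polymerase family proteins, whose levels are given further on. The 5 codons of the motif are in capitals, with 15 bases on either side, 5′ to 3′ on the coding strand.
RDR1, chr1:5095303-5095347 (minus strand): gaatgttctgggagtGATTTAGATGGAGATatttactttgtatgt
RDR2, chr4:6783373-6783417 (plus strand): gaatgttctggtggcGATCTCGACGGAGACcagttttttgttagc
RDR6, chr3:18350590-18350634 (minus strand): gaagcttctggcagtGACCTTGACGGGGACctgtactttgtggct
AT2G19910, chr2:8597081-8597125 (minus strand): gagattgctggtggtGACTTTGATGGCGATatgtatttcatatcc
AT2G19920, chr2:8603320-8603364 (minus strand): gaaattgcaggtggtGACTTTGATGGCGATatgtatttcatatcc
AT2G19930, chr2:8608826-8608870 (minus strand): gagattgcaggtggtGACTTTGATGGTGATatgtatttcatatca
The second codon of the motif is TTA in RDR1, CTC in RDR2 and CTT in RDR6, and it is TTT in AT2G19910, AT2G19920 and AT2G19930.

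DCL1 is itself a target of a microRNA, miR162, that the DCL1 enzyme makes. The mature microRNA, cut from the MIR162A transcript, is shown with its seed (bases 2 to 8) in capitals, and the DCL1 site with the 1 unpaired base in capitals.
miR162a-3p, chr5:2634936-2634956 (minus strand): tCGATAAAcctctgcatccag
DCL1 site, plus strand: ctggatgcagaggtAttatcga
All 21 bases of the microRNA pair with the site. The site spans the junction of exon 12, which holds 12 of its 22 bases (chr1:27522-27533), and exon 13, which holds the other 10 (chr1:27618-27627).

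The promoters of RDR2 and DCL3 are shown because these 2 genes differed most between stamens and gynoecium, in opposite directions. Each is the 250 bases before the annotated gene start, with matches to any of the 6 motifs searched in capitals.
RDR2 promoter, chr4:6780199-6780448 (plus strand): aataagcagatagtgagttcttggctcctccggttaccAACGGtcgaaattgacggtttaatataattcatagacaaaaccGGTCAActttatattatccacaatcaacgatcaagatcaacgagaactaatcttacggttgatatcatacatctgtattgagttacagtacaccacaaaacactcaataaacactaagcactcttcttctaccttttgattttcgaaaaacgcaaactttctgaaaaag
DCL3 promoter, chr3:15753137-15753386 (plus strand): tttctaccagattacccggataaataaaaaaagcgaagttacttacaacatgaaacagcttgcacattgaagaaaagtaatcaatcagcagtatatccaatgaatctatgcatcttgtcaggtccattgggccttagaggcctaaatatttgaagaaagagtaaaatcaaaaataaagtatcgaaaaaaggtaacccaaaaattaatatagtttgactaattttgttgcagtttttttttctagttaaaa
Both strands were searched from 250 bases before to 50 bases after the start of each of 27443 protein-coding genes. Of the W-box, a site of WRKY factors, only the form TTGACC was searched. It was found in the window of RDR2 alone among the 7 genes and in 14.2% of all windows. The form TTGACT, which the DCL3 promoter shown above holds, was not searched. The MSA core AACGG, known from genes of the dividing cell, was found in RDR2 and RDR6 and in 24.7% of all windows. The GCC-box GCCGCC was found in DCL2 and in 2.57% of all windows. The auxin response element TGTCTC (14.2% of all windows) and the E2F sites TTTCCCGC (0.798%) and TTTGGCGC (0.434%) were found in none of the 7. No motif searched overlapped another in the promoters shown.

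Total counts ran from 16042169 to 18756860 per library. Levels are given as CPM, in which TMM factors scale each library total, and 3 counts, the limit that a count of 0 allows, correspond to 0.126 to 0.229 CPM (counting error only). Values with ± are mean and SD of 3 libraries, and log2 changes with ± carry their SE. The tissues matched their labels by marker genes: the 4 stamen markers summed to 2846 to 2897 CPM in stamen libraries, 19.1 to 20.8 CPM in gynoecium libraries and 0 in leaf libraries. The 4 gynoecium markers summed to 1.06 to 1.97 CPM in stamens, 208 to 224 CPM in gynoecium and 0 in leaf. The 4 pollen markers summed to 6133 to 6449 CPM in stamens, 5.79 to 6.72 CPM in gynoecium and at most 0.0712 CPM in leaf. The 4 leaf markers summed to 440 to 460 CPM in stamens, 394 to 460 CPM in gynoecium and 14187 to 14860 CPM in leaf. TMM factors were 0.9555 to 0.9656 in stamens, 1.272 to 1.279 in gynoecium and 0.8154 to 0.8165 in leaf. With library totals alone in place of TMM, the median log2 change of all genes moved to -0.29 (TMM 0.09) for stamens against gynoecium, to 0.46 (0.23) for stamens against leaf and to 0.55 (0) for gynoecium against leaf, and the share of calls that were higher moved to 39.8% (54.3%), 62.9% (56.9%) and 67.3% (51.6%). Small changes of the 7 genes are read against these shifts.

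In stamens against gynoecium, DCL1, DCL3 and, with TMM but not with library totals, DCL2 were higher, and DCL4, RDR1, RDR2 and RDR6 were lower. All 3 polymerase genes thus stood lower in stamens. These are levels in whole organs, where a larger share of cells with a transcript and more transcript per cell cannot be told apart. All 7 genes were called at an adjusted p under 0.05, 3 higher and 4 lower, where 85.3% of all genes tested were called (46.3% higher and 39.0% lower), and the 3 stamen libraries did not overlap the 3 gynoecium libraries for any of the 7 (85.1% of all genes). With a background this high, the count of calls is not a result about the 7 genes, and the sizes and directions carry the description. Their median log2 change was -0.21, against 0.09 over all genes, and their median absolute log2 change was 0.65, against 0.90 over all genes. Only DCL3 was more than 2-fold higher, and RDR2 and RDR6 more than 2-fold lower, when the edgeR fit was tested against a 2-fold change.

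In stamens against leaf, the 4 Dicer-like genes and RDR2 were higher and RDR1 and RDR6 were lower. All 7 were called, 5 higher and 2 lower (87.9% of all genes were called, 50% higher and 37.9% lower), and for none did the libraries overlap (87.2% of all genes). Their median log2 change was 0.63, against 0.23 over all genes, with the same median when RDR2 was set at its bound. In gynoecium against leaf, DCL2, DCL3, DCL4, RDR2 and RDR6 were higher, RDR1 was lower and DCL1 was not called, and with library totals the RDR1 direction turned and DCL1 was higher. That made 6 of 7 called, 5 higher and 1 lower, where 82.5% of all genes were called (42.6% higher and 40.0% lower), and 6 of 7 without overlap (82.6% of all genes). The median log2 change was 0.99 in the 7 genes and 0 over all genes. The 3 comparisons share libraries in pairs and are not independent of one another.

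**Figure D1:**
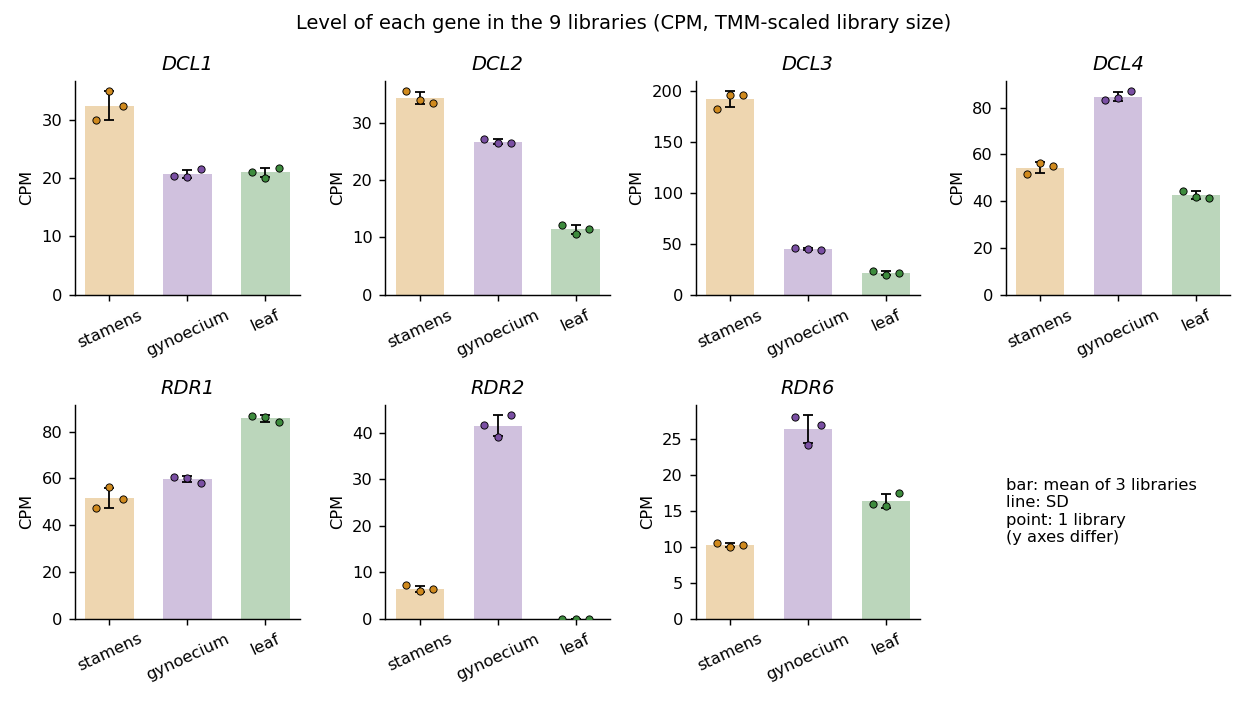
Level of each of the 7 genes in CPM (y axis, from 0, scaled per gene) in stamens, gynoecium and leaf (x axis); bars are means of 3 libraries, lines SD and points single libraries. DCL3 reaches 182 to 196 CPM in stamens, RDR2 stands at 39.1 to 43.7 CPM in gynoecium and at 0 in leaf, and RDR1 alone is highest in leaf on this scale (by FPKM it is highest in gynoecium).

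DCL3, which makes the siRNAs of DNA methylation, showed the largest rise of the Dicer-like genes. It stood at 182, 196 and 196 CPM in stamens, at 45.6, 45.0 and 43.8 CPM in gynoecium and at 23.0, 19.4 and 21.7 CPM in leaf. The 3 tissues did not overlap, and stamens stood highest in every library. DCL3 was 4.27-fold higher in stamens than in gynoecium (log2 2.1 ± 0.046 SE, edgeR adjusted p = 4.2e-46) and 8.97-fold higher than in leaf (log2 3.16 ± 0.056, adjusted p = 1.47e-51). It was also 2.1-fold higher in gynoecium than in leaf (log2 1.07 ± 0.063, adjusted p = 7.79e-24). Under the 22 alternative settings the stamen-to-gynoecium log2 change ran from 1.60 to 2.14. The pollen markers, also high in stamens, moved with DCL3, and their part in the result was not tested. DCL3 shares 43 exon bases with the antisense locus AT3G43930, at 4.36 CPM in stamens and listed at 0 in gynoecium and leaf. The part of this locus was not tested.

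DCL1, the microRNA Dicer, had the narrowest range of levels among the Dicer-like genes. Its levels were 29.9, 34.9 and 32.4 CPM in stamens, 20.3, 20.2 and 21.5 CPM in gynoecium and 21, 20.1 and 21.8 CPM in leaf. The stamen libraries stood above all others, and gynoecium and leaf overlapped. DCL1 was 1.57-fold higher in stamens than in gynoecium (log2 0.65 ± 0.072, adjusted p = 3.32e-12) and 1.55-fold higher than in leaf (log2 0.63 ± 0.078, adjusted p = 8.51e-11). The size of the stamen-to-gynoecium log2 change hung on the processing, from 0.19 to 0.72 under the 22 alternative settings. Between gynoecium and leaf the log2 change was -0.02 ± 0.080 (adjusted p = 0.888) with TMM and 0.63 with library totals (adjusted p = 4.11e-10), so the direction there hangs on the scaling. MIR162A, the host of the microRNA that targets DCL1, had 13.6 ± 1.04 CPM in stamens, 10.8 ± 0.532 CPM in gynoecium and 16.7 ± 2.66 CPM in leaf (mean ± SD, n = 3 each). Its log2 changes of 0.34, -0.30 and -0.64 in the 3 comparisons passed the test with TMM, and none did with library totals. The count table reads the precursor transcript and not the mature microRNA. Exon bases of DCL1 overlap other gene models at 846 positions, 788 of them with the antisense locus AT1G03993, which had no count in any library. How reads in the shared bases were counted is not given in the sources used here, so the lack of counts does not show what the overlap did to DCL1.

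DCL2, which acts beside DCL4 in antiviral defence, stood at 35.5, 34.0 and 33.4 CPM in stamens, at 27.1, 26.5 and 26.4 CPM in gynoecium and at 12.1, 10.6 and 11.5 CPM in leaf. Leaf was lowest in every library. DCL2 was 3.01-fold higher in stamens than in leaf (log2 1.59 ± 0.085, adjusted p = 5.56e-26) and 2.35-fold higher in gynoecium than in leaf (log2 1.23 ± 0.085, adjusted p = 1.31e-20). Between stamens and gynoecium it was 1.28-fold higher in stamens with TMM (log2 0.36 ± 0.068, adjusted p = 2.66e-06), but the log2 change was -0.05 with library totals (adjusted p = 0.501). DCL2 shares 515 exon bases with AT3G03305, a same-strand neighbour at 203 CPM in stamens, 28.1 CPM in gynoecium and 41.0 CPM in leaf; how reads in the shared bases were counted is not given in the sources used here, and the part of this neighbour was not tested.

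DCL4, which cuts the trans-acting siRNAs, had its highest level in gynoecium. It had 51.7, 56.2 and 55.2 CPM in stamens, 83.1, 84.0 and 87.0 CPM in gynoecium and 44.4, 41.9 and 41.3 CPM in leaf. All 3 tissues stood apart. DCL4 was 1.56-fold lower in stamens than in gynoecium (log2 -0.64 ± 0.049, adjusted p = 1.62e-18) and 1.28-fold higher in stamens than in leaf (log2 0.35 ± 0.056, adjusted p = 6.22e-08). In gynoecium it was 1.99-fold higher than in leaf (log2 0.99 ± 0.052, adjusted p = 4.07e-26). Under the 22 alternative settings these directions held, but the sizes moved. The log2 change ran from -1.05 to -0.59 for stamens against gynoecium. It ran from 0.30 to 0.59 for stamens against leaf and from 0.98 to 1.64 for gynoecium against leaf.

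RDR2, the polymerase that copies the transcripts of RNA polymerase IV, had the widest range of the 7 genes only with its listed 0 in leaf included. Its gynoecium and stamen levels lay 6.44-fold apart, while DCL3 spanned 8.96-fold over the 3 tissues. Its raw counts were 123, 99 and 103 in stamens, 995, 862 and 1011 in gynoecium and 0 in each leaf library, or 7.13, 5.83 and 6.35 CPM in stamens and 41.7, 39.1 and 43.7 CPM in gynoecium. Every gynoecium library stood above every stamen library, and leaf was listed at 0 throughout. RDR2 was 6.44-fold lower in stamens than in gynoecium (log2 -2.69 ± 0.093, adjusted p = 1.59e-34). Set against 3 counts per leaf library, it was at least 29.4-fold higher in stamens and at least 190.0-fold higher in gynoecium than in leaf. These bounds take the listed 0 as a count of 0. Of 9929 genes with over 1000 summed counts in gynoecium, 204 were listed at 0 in all 3 leaf libraries, while 46 had a summed leaf count of 1 to 10, 16 of them a count of 1. Among the 204, and picked after its values were seen, is BIO1, a gene of biotin synthesis, with 400, 370 and 432 counts in stamens and 604, 525 and 580 in gynoecium. Whether the listed zeros of leaf reflect a step of the authors' processing was not tested.

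RDR6, the polymerase of trans-acting and transgene siRNAs, was also highest in gynoecium and, unlike RDR2, was not listed at 0 in leaf. It had 10.5, 9.96 and 10.2 CPM in stamens, 28.1, 24.2 and 26.9 CPM in gynoecium and 16, 15.7 and 17.5 CPM in leaf, with no overlap between tissues. RDR6 was 2.58-fold lower in stamens than in gynoecium (log2 -1.37 ± 0.089, adjusted p = 9.42e-22) and 1.60-fold lower than in leaf (log2 -0.68 ± 0.101, adjusted p = 1.21e-08). In gynoecium it was 1.61-fold higher than in leaf (log2 0.69 ± 0.085, adjusted p = 6.97e-11). The 6 markers of dividing cells, highest in gynoecium as RDR2, RDR6 and DCL4 were, summed to 83.4 to 88.2 CPM in stamens, 294 to 298 CPM in gynoecium and 27.1 to 30.4 CPM in leaf; their part in these results was not tested.

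RDR1 was the only one of the 7 genes with its highest level in leaf on the TMM scale, an order that FPKM turned by placing gynoecium first. It had 47.5, 56.4 and 51.0 CPM in stamens, 60.8, 60.2 and 58.2 CPM in gynoecium and 86.9, 86.2 and 84.0 CPM in leaf. Leaf stood above both floral organs, and stamens were lowest in every library. RDR1 was 1.16-fold lower in stamens than in gynoecium (log2 -0.21 ± 0.053, adjusted p = 0.00024) and 1.66-fold lower than in leaf (log2 -0.73 ± 0.053, adjusted p = 1.51e-19). In gynoecium it was 1.43-fold lower than in leaf with TMM (log2 -0.52 ± 0.051, adjusted p = 2.16e-14), but with library totals the log2 change was 0.12 (adjusted p = 0.0188). The stamen-to-gynoecium log2 change of RDR1 kept its direction but ran from -0.62 to -0.14 under the 22 alternative settings. The 4 salicylate response markers summed to 42.7 to 46.1 CPM in stamens, 59.0 to 62.9 CPM in gynoecium and 738 to 763 CPM in leaf. PR1, a defence gene induced by salicylate and 1 of the 4, was listed at 0 in both floral organs, and the part of these markers in the RDR1 levels was not tested. RDR1 shares 192 exon bases with the antisense locus AT1G14780, at 15 CPM in stamens, 0.132 CPM in gynoecium and 21.5 CPM in leaf, and reads of the 2 loci in those bases cannot be told apart where strand is not used.

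**Figure D2:**
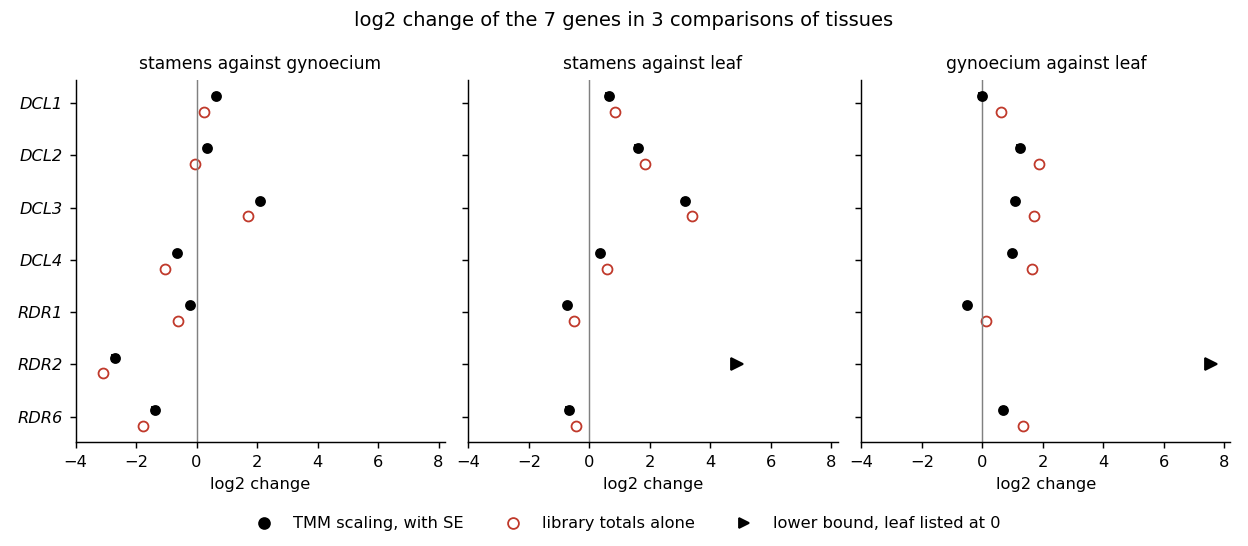
log2 change (x axis) of each gene (y axis) in the 3 comparisons, with TMM scaling (filled circles, lines are SE and mostly smaller than the symbol) and with library totals alone (open circles); triangles are lower bounds of RDR2 against leaf. Circles lie on opposite sides of 0 for DCL2 in stamens against gynoecium and for DCL1 and RDR1 in gynoecium against leaf.

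The order of the tissues differed within both families. On the TMM scale, DCL2 and DCL3 ran stamens, gynoecium, leaf from high to low, DCL4 and RDR2 ran gynoecium, stamens, leaf, RDR6 ran gynoecium, leaf, stamens, and RDR1 ran leaf, gynoecium, stamens. DCL1 was highest in stamens, and gynoecium and leaf did not differ beyond their spread. Every other step between neighbours in these orders passed the test. By FPKM the order changed for DCL1 (gynoecium above leaf), DCL2 (gynoecium above stamens) and RDR1 (gynoecium above leaf).

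Levels of different genes were compared as FPKM, the authors' values per length, whose implied lengths matched the annotated exon bases of each gene. In stamens DCL3 made up 63.9, 64.1 and 64.9% of the summed FPKM of the 4 Dicer-like genes, against 28.4, 28.1 and 27.0% in gynoecium and 25.5, 23.6 and 25.1% in leaf. DCL4 held 16 ± 0.125% in stamens, 46.2 ± 0.797% in gynoecium and 43.3 ± 1.30% in leaf (mean ± SD, n = 3 each). The leading Dicer-like transcript was therefore DCL3 in all stamen libraries and DCL4 in all gynoecium and leaf libraries. DCL1 held 8.74 ± 0.389% in stamens, 10.3 ± 0.266% in gynoecium and 19.5 ± 0.823% in leaf, and DCL2 held 10.9 ± 0.727% in stamens, 15.7 ± 0.298% in gynoecium and 12.4 ± 0.255% in leaf. The sum of the 4 genes was 56.7 ± 1.76 FPKM in stamens, 40.7 ± 0.388 FPKM in gynoecium and 14.0 ± 0.626 FPKM in leaf. A share within a library does not change with library scaling, but with 3 libraries against 3 an exact permutation test cannot go below 0.10, and shares are given without a test.

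Among the 3 polymerase genes, RDR1 held the largest share in every library: 75.5 ± 2.66% in stamens, 46.0 ± 1.77% in gynoecium and 84.7 ± 1.0% in leaf. RDR2 held 10.3 ± 1.55% in stamens and 34.8 ± 1.29% in gynoecium, and RDR6 held 14.2 ± 1.12% in stamens, 19.2 ± 0.896% in gynoecium and 15.3 ± 1.0% in leaf. Their summed FPKM was 16.2 ± 0.751 in stamens, 41.0 ± 1.12 in gynoecium and 20.4 ± 0.139 in leaf. The partners DCL3 and RDR2 stood at an FPKM ratio of 18.9, 24.7 and 22.8 in stamens and of 0.806, 0.847 and 0.738 in gynoecium. For DCL4 and RDR6, which also act together, the FPKM ratio was 3.97 ± 0.283 in stamens, 2.40 ± 0.190 in gynoecium and 1.94 ± 0.164 in leaf.

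**Figure D3:**
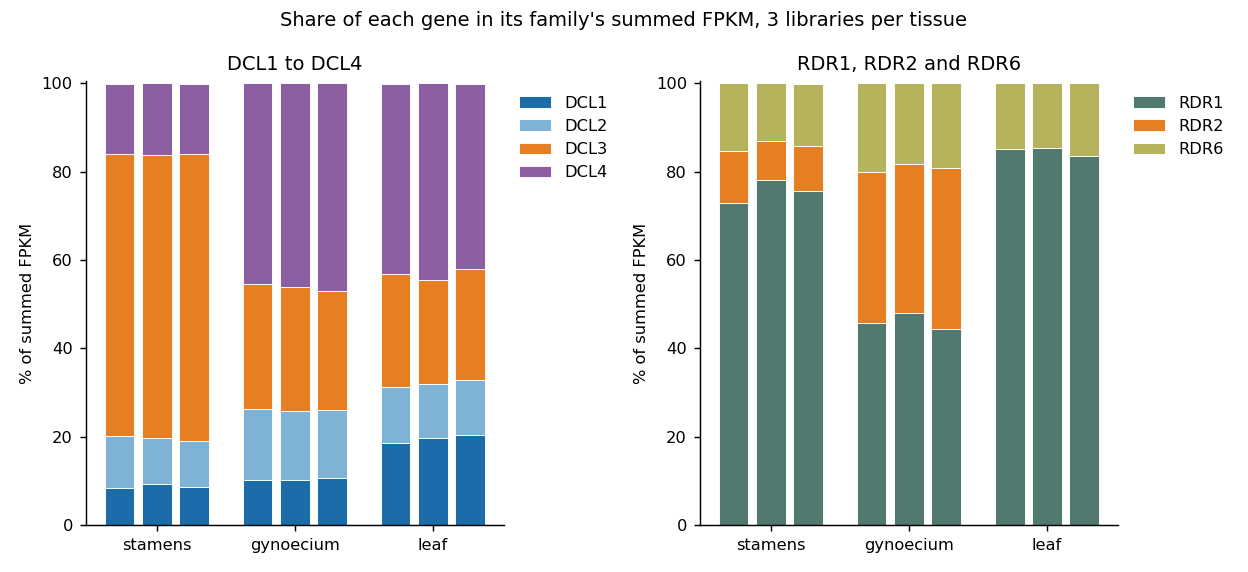
Share of each gene in the summed FPKM (y axis, percent) of DCL1 to DCL4 (left) and of RDR1, RDR2 and RDR6 (right) in each of 3 libraries of stamens, gynoecium and leaf (x axis). DCL3 fills 63.9 to 64.9% of the stamen bars, and the RDR2 band is 8.80 to 11.9% in stamens, 33.9 to 36.3% in gynoecium and missing in leaf.

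The other 3 polymerase loci, which carry the TTT codon in the motif shown above, were also listed at 0 in all leaf libraries. AT2G19910 had 11.6 ± 1.90 CPM in stamens and 39.6 ± 0.766 CPM in gynoecium and was 3.43-fold lower in stamens (adjusted p = 4.47e-27). AT2G19920 had 6.91 ± 0.381 CPM in stamens and 7.03 ± 0.680 CPM in gynoecium and was not called (adjusted p = 0.875), though it was lower in stamens with library totals (log2 -0.44, adjusted p = 0.00336). AT2G19930 had 18.9 ± 1.03 CPM in stamens and 5.85 ± 0.201 CPM in gynoecium and was higher in stamens (log2 1.69 ± 0.114, adjusted p = 1.05e-20). The 3 adjacent loci thus ran lower, not called and higher in stamens. Of the other ribonuclease III genes, RTL1 was listed at 0 outside stamens (1.09 ± 0.0417 CPM), RTL3 was lower in stamens than in gynoecium (log2 -0.78 ± 0.145, adjusted p = 2.29e-06), and RTL2 was highest in leaf (8.05 ± 0.432 CPM).

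The genes of the double-stranded RNA binding proteins that assist the Dicers were mostly lower in stamens than in gynoecium. Of 5 genes, 1 was higher and 4 were lower in stamens than in gynoecium, where 46.3% of all genes were higher and 39.0% lower. Their median log2 change was -1.40 (all genes 0.09), and the split stayed 1 and 4 with library totals. HYL1, the partner of DCL1, was the higher one, at 24.7 ± 1.32 CPM in stamens, 16.2 ± 0.869 CPM in gynoecium and 10.9 ± 0.756 CPM in leaf. DRB4, the partner of DCL4, had 36.5 ± 1.13 CPM in stamens, 46.1 ± 2.01 CPM in gynoecium and 23.6 ± 1.48 CPM in leaf, the same order of tissues as DCL4. DRB3 had 34.7 ± 2.45 CPM in stamens, 154 ± 2.17 CPM in gynoecium and 8.95 ± 0.556 CPM in leaf. DRB2 and DRB5 were lower in stamens than in gynoecium by 1.62 and 1.40 on the log2 scale. Against leaf, 4 of the 5 were higher in stamens (DRB2 was lower, median log2 1.18, all genes 0.23) and all 5 were higher in gynoecium (median log2 0.96, all genes 0). Of all genes, 50% were higher in stamens than in leaf and 42.6% were higher in gynoecium than in leaf.

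The partners of RDR2 and DCL3 in the RNA polymerase IV and V pathway were mostly lower in stamens than in gynoecium, as RDR2 was and DCL3 was not. Of 20 genes, 2 were higher, 16 were lower and 2 were not called (median log2 -0.84, all genes 0.09), where 46.3% of all genes were higher and 39.0% lower. The 6 markers of dividing cells were all lower in stamens than in gynoecium too (median log2 -1.73), and their part in the levels of this pathway was not tested. NRPD1A, the largest subunit of RNA polymerase IV, had 2.49 CPM in stamens, 9.48 CPM in gynoecium and 0.221 CPM in leaf and was lower in stamens than in gynoecium (log2 -1.92 ± 0.162, adjusted p = 9e-17). SHH1, which recruits that polymerase to chromatin, was lower in stamens by 1.81 on the log2 scale (adjusted p = 6.35e-15). The exceptions were DRM1, a DNA methyltransferase gene (log2 2.28 ± 0.185, adjusted p = 3.67e-17), and the chromatin remodelling gene CHR42 (log2 0.94 ± 0.148, adjusted p = 5.79e-08). DRM2, the main methyltransferase of the pathway, was at 66.5 CPM in stamens and 70.5 CPM in gynoecium and was not called with TMM (log2 -0.08, adjusted p = 0.121), though it was lower in stamens with library totals (log2 -0.50, adjusted p = 7.42e-13). Against leaf, 14 of the 20 were higher and 4 lower in stamens (median log2 1.5, all genes 0.23), and 18 were higher and 2 lower in gynoecium (median log2 2.2, all genes 0). Of all genes, 50% were higher and 37.9% lower in stamens than in leaf. For gynoecium against leaf these shares were 42.6% and 40.0%. The markers of dividing cells were higher than in leaf for 5 of 6 in stamens (median log2 2.66) and 6 of 6 in gynoecium (median log2 4.39). SUVH2 was lower than in leaf in both organs (log2 -1.84 in stamens, -0.96 in gynoecium).

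Among the partners of RDR6 and DCL4, 1 of the 6 genes listed for secondary siRNAs was higher in stamens than in gynoecium, 3 were lower and 2 were not called (median log2 -0.20, all genes 0.09), and with library totals 0 were higher and 5 lower. AGO7, the Argonaute that starts trans-acting siRNA production from TAS3 precursors, was lower in stamens than in gynoecium (3.45 CPM in stamens, 19 CPM in gynoecium, log2 -2.46 ± 0.128, adjusted p = 3e-26). SGS3, which stabilises the RNA that RDR6 copies, was likewise lower (43.4 CPM in stamens, 99.3 CPM in gynoecium, log2 -1.19 ± 0.051, adjusted p = 8.65e-31). The higher one was RTL2, a ribonuclease III gene (log2 0.59 ± 0.162, adjusted p = 0.000778), and its call was lost with library totals. Against leaf, 5 of the 6 were higher and RTL2 was lower in both organs. The median log2 change was 1.44 in stamens (all genes 0.23, with 50% of all genes higher). In gynoecium the median was 1.81 (all genes 0, with 42.6% of all genes higher).

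Of 8 listed precursors from which RDR6 and DCL4 make trans-acting siRNAs, the 5 that passed the filter were highest in leaf, and the other 3 were listed at 0 in leaf. DCL4 was lowest in leaf, while RDR6 was lowest in stamens. TAS2 had 13.7 ± 0.674 CPM in stamens, 25.6 ± 1.58 CPM in gynoecium and 47.3 ± 0.732 CPM in leaf. TAS1A had 1.99 ± 0.156 CPM in stamens, 3.28 ± 0.415 CPM in gynoecium and 14.6 ± 1.31 CPM in leaf. TAS3 had 2, 3 and 2 counts in stamens, 46, 29 and 34 in gynoecium and 90, 62 and 64 in leaf. All 5 tested precursors were lower than in leaf both in stamens (median log2 -1.79, all genes 0.23) and in gynoecium (median log2 -1.83, all genes 0), also with library totals. Of all genes, 37.9% were lower in stamens than in leaf and 40.0% were lower in gynoecium than in leaf. Between stamens and gynoecium, TAS1C and TAS1B were higher in stamens and TAS1A, TAS2 and TAS3 lower, and the TAS1B call was lost with library totals (log2 0.04, adjusted p = 0.857). TAS1B had 2.95 ± 0.447 CPM in stamens, 2.15 ± 0.538 CPM in gynoecium and 7.64 ± 1.61 CPM in leaf, and TAS1C had 3.18 ± 0.323 CPM in stamens, 0.930 ± 0.153 CPM in gynoecium and 8.35 ± 1.22 CPM in leaf. The 3 that did not pass had at most 12 counts in any library. TAS3B had 1, 1 and 0 counts in stamens and 7, 9 and 4 in gynoecium, the tasiR-ARF locus 0, 1 and 0 in stamens and 3, 5 and 12 in gynoecium, and TAS4 4, 2 and 1 in stamens and 0 in gynoecium.

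The genes that assist DCL1 in microRNA processing split in direction between the floral organs. Of 11 genes, 3 were higher, 6 were lower and 2 were not called in stamens against gynoecium (median log2 -0.09, all genes 0.09), a split that moved to 1 higher and 9 lower with library totals. SE, which works in the complex of DCL1 and HYL1, was at 154 CPM in stamens and 150 CPM in gynoecium (log2 0.04, adjusted p = 0.281), with -0.37 under library totals (adjusted p = 1.44e-12). Against leaf, 10 of 11 were higher in stamens (median log2 1.18, all genes 0.23, with 50% of all genes higher). All 11 were higher in gynoecium than in leaf (median log2 0.86, all genes 0, with 42.6% of all genes higher). HEN1, the methyltransferase that protects small RNA ends, led in both organs (log2 3.14 ± 0.069 in stamens and 3.24 ± 0.068 in gynoecium).

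Of 9 tested Argonautes, the proteins that carry the small RNAs, 1 was higher and 6 were lower in stamens than in gynoecium (median log2 -0.67, all genes 0.09), where 85.3% of all genes were called, 46.3% higher and 39.0% lower. AGO7, AGO9, AGO10 and AGO5 were lower by 2.46, 2.44, 2.04 and 1.93 on the log2 scale, and AGO3 was higher (log2 2.77 ± 0.207, adjusted p = 4.9e-19). All 9 tested were higher in stamens than in leaf (median log2 2.24, all genes 0.23, with 50% of all genes higher) and 8 were higher in gynoecium than in leaf (median log2 3.85, or 3.55 with bounds, all genes 0, with 42.6% of all genes higher), with AGO5, AGO6 and AGO9 listed at 0 in leaf. Of the 10 listed Argonautes, AT5G21030 did not pass the filter and ran the other way. It had 11, 11 and 8 counts in leaf and was listed at 0 in all stamen and gynoecium libraries. The small RNA turnover genes split 1 higher to 4 lower in stamens against gynoecium (median log2 -0.51, all genes 0.09), with the exonuclease gene SDN1 furthest down (log2 -0.86 ± 0.105), and the 1 higher call, HESO1, was lost with library totals. Over the 59 tested protein genes of all these lists, 11 were higher, 40 lower and 8 not called in stamens against gynoecium (median log2 -0.53, all genes 0.09), the direction in which all 6 markers of dividing cells also lay. Against leaf, 49 were higher and 7 lower in stamens (median log2 1.43, all genes 0.23, with 50% of all genes higher and 37.9% lower). In gynoecium, 53 were higher and 4 lower than in leaf (median log2 1.78, all genes 0, with 42.6% of all genes higher and 40.0% lower). The part of dividing cells in these counts was not tested.

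**Figure D4:**
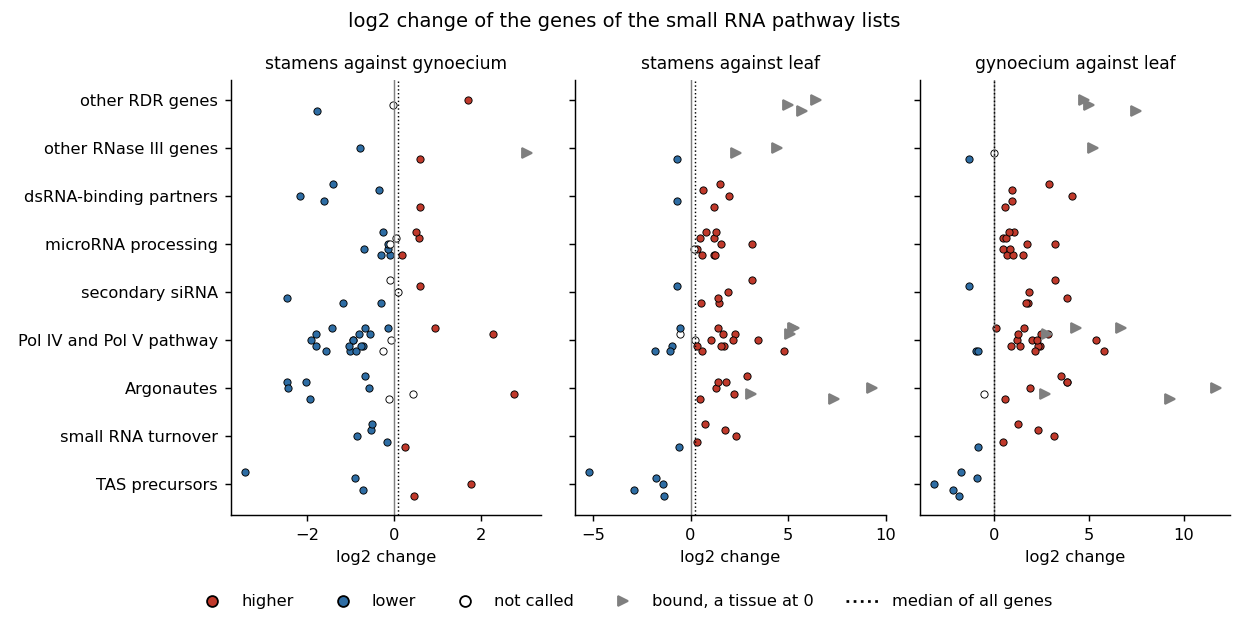
log2 change (x axis) of each tested gene of 9 small RNA gene lists (rows) in the 3 comparisons; circles are coloured by call, triangles are bounds where a tissue was listed at 0, and the dotted line is the median of all genes. Of 20 Pol IV and Pol V genes, 16 lie lower in stamens than in gynoecium, and all 5 TAS precursors lie below 0 against leaf.

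Genes near in pattern were found by Euclidean distance of log2 CPM, centred per gene, over the 9 libraries and ranked among 20826 other genes, and the 2 nearest genes that carry a symbol are named with their ranks. For RDR2 these were iqd17, at rank 1 (7.32 CPM in stamens, 45.3 CPM in gynoecium, 0 in leaf) and TMM, a stomatal patterning gene (AT1G80080), at rank 4, and its nearest gene of the lists was the polymerase locus AT2G19910, at rank 46. Like RDR2, iqd17, TMM and AT2G19910 were listed at 0 in leaf, and the part of these zeros in the ranks was not tested. For DCL3 the 2 nearest were RIP3, at rank 4 (162 CPM in stamens, 31.7 CPM in gynoecium, 18.2 CPM in leaf), and SDG16, at rank 8. For RDR6 they were ATNTH1 and CSLC5, at ranks 2 and 5, with DRB2 the nearest listed gene at rank 77. For DCL4 they were TPR10 and PUM24, at ranks 1 and 3, with its partner DRB4 the nearest listed gene at rank 278. For DCL2 they were ATU2AF65A and EMB2820, at ranks 2 and 5, and for RDR1 RBL4 and CPK1, at ranks 2 and 3. The nearest listed genes stood at rank 1415 for DCL1 (SE), 282 for DCL2 (DDL) and 666 for RDR1 (CLSY1). No 2 of the 7 genes were near neighbours: the closest of the other 6 stood at ranks 1555 (for DCL3) to 5909 (for RDR1).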

How the data were processed

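Total RNA of tissue was sequenced in 3 libraries each of stamens, gynoecium and leaf. Per the submitters' processing notes, the tools were HTSeq 0.6.0, HISAT2 2.1.0, Bowtie2 2.2.3 and TopHat2 and the genome was TAIR10. Their roles, the strand setting and the handling of reads in overlapping genes are not given in the sources used here. The deposited values are whole-number counts per locus (32833 loci) and FPKM (24400 loci), the authors' counts per length and library total.

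The counts were analysed with edgeR 4.0.16 and limma 3.58.1 in R 4.3.3: filterByExpr by tissue (20827 loci kept), TMM scaling, and robust quasi-likelihood tests with 1 mean per tissue over all 9 libraries. P-values were adjusted over all loci tested (Benjamini-Hochberg) and called under 0.05. SE of a log2 change is its size over the root of the F statistic. Levels (CPM) are counts relative to the scaled library size, and a fold against a tissue listed at 0 uses 3 counts per library. FPKM entered shares and limma on log2 of FPKM plus 1 or 0.1, which understates changes of low genes. The script was tested on simulated data in which few genes changed, and only between stamens and gynoecium. That test does not cover the shifts between scalings given above.

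Sequences, exons and names came from RefSeq's TAIR10.1 annotation, since the files hold loci without coordinates. Of 97 listed loci, 9 are not paired there with the listed symbol and are given by the annotated name or locus. HEN1, RTL2 and AGO7 stand on 2 lists. The 7 genes, lists, motifs and tests were chosen with earlier results of these data known. The naming rule takes the 7 genes, the other polymerase, double-stranded RNA binding and TAS genes, and per other list and comparison up to 3 called genes a direction with the largest log2 change and the uncalled gene of highest level, of which the text gives a selection, with the nearest genes in pattern. One such neighbour result is not reported here.

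Same-tissue libraries differed beyond sampling noise (chi-square 1.78 to 3.17 per degree of freedom), and none were identical. Values were recomputed with library totals, upper quartile or DESeq2 size factors in place of TMM, with DESeq2 1.42.0 or limma-voom in place of edgeR, with other filters, with a replicate block, on only the libraries compared, without each library, without organelle genes, and against a 2-fold change. Python 3.11.15, pandas 2.3.3, numpy 2.4.6 and matplotlib 3.10.9 made tables and figures.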

Additional observations from a re-analysis of the deposited data

Results flagged for a closer look

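RDR6 moved in opposite directions in the 2 floral organs relative to leaf: it was lower in stamens (10.2 ± 0.297 CPM in stamens, 16.4 ± 0.990 CPM in leaf, log2 -0.68) and higher in gynoecium (26.4 ± 1.97 CPM in gynoecium, 16.4 ± 0.990 CPM in leaf, log2 0.69), as mean ± SD of 3 libraries each. The difference between the organs was tested directly as stamens against gynoecium, with a log2 change of -1.37 ± 0.089 (edgeR adjusted p = 9.42e-22). It ran from -1.78 to -1.31 under the 22 alternative settings. Both comparisons with leaf use the same leaf libraries.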

How the results depend on the processing

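With the 22 alternative settings, 436 of 462 log2 changes of the 7 genes kept their direction and their side of the threshold. With library totals, the log2 change of DCL2 in stamens against gynoecium was -0.05, that of DCL1 in gynoecium against leaf 0.63 and that of RDR1 there 0.12. With limma on log2 of FPKM plus 1 the same 3 values were -0.04, 0.48 and 0.12, and with FPKM plus 0.1 they were -0.05, 0.61 and 0.12. DCL1 in gynoecium against leaf, which was not called, was 0.08 with upper quartile factors, 0.03 with the libraries of the comparison alone and -0.05 to 0.01 with 1 library left out, turning sign at 0.00 without gynoecium replicate 1 or 2 and at 0.01 without leaf replicate 3. The cause was not tested.

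Against a 2-fold change, 3 genes (1 higher, 2 lower) were called in stamens against gynoecium, 3 (3 higher, 0 lower) in stamens against leaf and 2 (2 higher, 0 lower) in gynoecium against leaf, fewer by the construction of the test. The count lower in gynoecium against leaf was 0 with library totals and with both FPKM fits. Shares of raw counts in place of FPKM moved 12 shares by over 1 SD, with DCL3 at 61.3% in stamens.

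Leaving out each library in turn changed no called direction or call of the 7 genes: 7, 7 and 6 genes stayed called. Same-numbered libraries share only a number: the labels tie them to no common plant or day, and their deviations from the tissue means correlated at -0.0882 to 0.11 across genes. With the number as a replicate block, 7, 7 and 6 genes were called, as without it. If the 0 listed for RDR2 in leaf is a count of 0, depth limits its level to under 0.214 to 0.229 CPM; whether it is was not tested.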
